A study of Mus musculus with 4 samples.

Results

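Vault, Y, telomerase, RNase P, RNase MRP and 7SK RNAs are short noncoding RNAs that work inside RNA-protein particles, and all but the telomerase RNA are known in mammals as products of RNA polymerase III. They are called structural RNAs here. Of 10 such mouse genes named for this description, 9 were represented on the array, by 10 probe sets, among 19938 genes and 21789 probe sets that carried exactly 1 gene symbol in the platform annotation. No probe set carried the symbol Rprl3 alone, and that gene was not analysed here. The genes were chosen by family and by their differences between the RBP and IgG arrays of this series, so those differences, and the counts of them past a threshold, are given below as a description and test nothing.

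Early erythroid progenitors of C57BL/6 fetal liver at E14.5 were lysed, and the RNA that antibodies pulled down from them was hybridised to Affymetrix whole-transcript arrays. Before lysis, cells bearing CD34, CD41, CD16/32, Sca-1 or markers of mature blood lineages had been removed, and c-Kit cells with low CD71 had been sorted. An antibody specific for an RNA-binding protein (RBP) was used for 2 arrays and control rabbit IgG for the other 2. The labels do not name the protein. Going by the publication, as remembered, it is ZFP36L2, an AU-rich element binding protein of the tristetraprolin family, which was not checked here. Whether replicate arrays stand for separate cell preparations is not stated, so a p-value reflects array-to-array spread that may be technical.

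As background, RNase P cuts the leader from precursor transfer RNAs, and RNase MRP, which shares most of its proteins, acts on precursor ribosomal RNA. The telomerase RNA carries the template for telomere repeats and is held by the dyskerin complex. The 7SK RNA holds the transcription elongation kinase P-TEFb inactive with HEXIM proteins, LARP7 and MEPCE. Vault RNAs belong to the large cytoplasmic vault particle, and Y RNAs bind the Ro60 and La proteins.

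All values are levels on the log2 scale of the authors' RMA summary, and differences are RBP minus IgG. The background level was set at 5.35, the 95th percentile of mean levels over 1261 probe sets of chemosensory receptor genes. The median level of single-symbol probe sets was 6.10 and 6.06 on the RBP arrays and 6.12 and 6.06 on the IgG arrays. The spread of levels differed by antibody. Interquartile ranges over all probe sets on the array were 3.73 and 3.61 on the RBP arrays and 2.91 and 2.87 on the IgG arrays. Medians of the chemosensory receptor genes were 3.53 and 3.53 on the RBP arrays and 3.89 and 3.81 on the IgG arrays. All 7 measured erythroid progenitor markers out of 8 listed, among them Kit, Gata1 and Epor, lay above the background level on every array. Markers of other cells were present too: Mpo, an enzyme of granulocyte precursors, had levels of 11.49 and 10.56 on the RBP arrays and 11.40 and 10.53 on the IgG arrays. Zfp36l2 mRNA was higher with the RBP antibody, at 12.05 ± 0.25 against 11.29 ± 0.04 (SD, n = 2 each), a difference of 0.76 ± 0.18 (SE; limma, adjusted p = 0.0267). That call was lost without RBP replicate 1 (0.58), without RBP replicate 2 (0.94) and without IgG replicate 1 (0.73), with limma adjusted p of 0.225, 0.0722 and 0.0505, and also with the loess trend of difference on level removed (0.69, adjusted p = 0.0586).

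All 10 probe sets of the structural RNAs were lower with the RBP antibody, and on each of them both RBP arrays lay under both IgG arrays. The median difference was -2.08, against -0.03 over all probe sets tested. An adjusted p under 0.05 in limma, after Benjamini and Hochberg, was the rule for calling a probe set, and 9 of the 10 lay past it, which restates how they were chosen. Over all 21789 probe sets tested, 6.64% were lower and 23.5% higher by the same rule, or 5115 higher and 1446 lower. That split was 7647 and 388 with centring on chemosensory receptor genes and 1434 and 1287 with a loess trend of difference on level removed. At least 2-fold lower without overlap were 9 of the 10, against 1.62% of all probe sets, and both RBP arrays lay under both IgG arrays for 36.4% of all. The counts are set by how the RNAs were chosen and support nothing further.

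**Figure D1:**
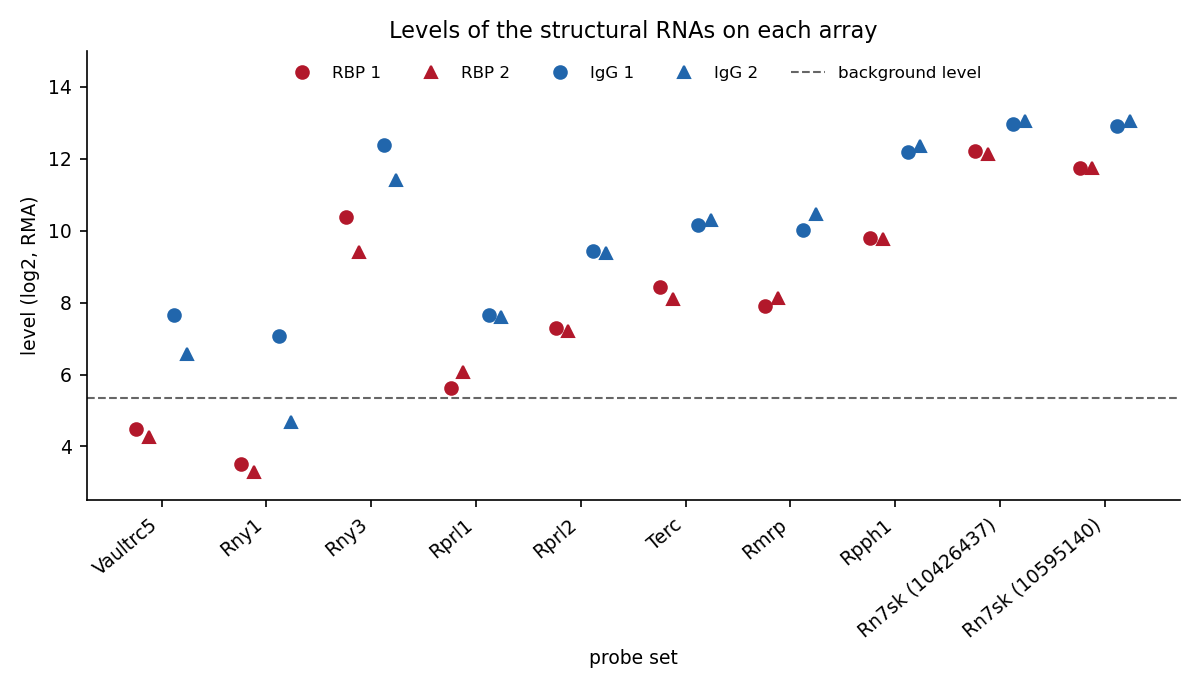
Levels (log2, RMA) of the 10 probe sets on each of the 4 arrays, with RBP arrays in red left of IgG arrays in blue, circles for replicate 1 and triangles for replicate 2, and the background level of 5.35 as a dashed line. Red points lie under blue points for every probe set, and Vaultrc5 and Rny1 lie under the background level on both RBP arrays.

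Among the RNAs of tRNA and rRNA processing, the RNase P RNA gene Rpph1 had levels of 9.79 and 9.76 on the RBP arrays, against 12.18 and 12.34 on the IgG arrays. The arrays within each group nearly coincided, and the groups were separated by at least 2.39. The difference was -2.49 ± 0.15 (SE), or 5.61-fold lower. The RNase MRP RNA gene Rmrp gave 7.90 and 8.12 on the RBP arrays, against 10.01 and 10.46 on the IgG arrays. It was 4.66-fold lower (-2.22 ± 0.20, SE), and in both groups replicate 2 was the higher array. The RNase P-like gene Rprl2 gave 7.28 and 7.21 on the RBP arrays, against 9.42 and 9.38 on the IgG arrays, which is 4.45-fold lower (-2.15 ± 0.14, SE). Rprl1, a further RNase P-like gene, gave 5.64 and 6.08 on the RBP arrays, against 7.67 and 7.61 on the IgG arrays. Its RBP arrays were the more spread pair and lay just above the background level, and the difference was -1.78 ± 0.19 (SE), 3.43-fold lower. Rprl1, Rprl2 and Rpph1 are annotated as one class of RNA in RefSeq, so their probe sets may share signal and were not treated as independent.

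The telomerase RNA gene Terc had levels of 8.42 and 8.10 on the RBP arrays, against 10.17 and 10.29 on the IgG arrays. The groups were well apart, each RBP array lying below both IgG arrays, and the difference was -1.97 ± 0.17 (SE), 3.90-fold lower.

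The 7SK RNA gene Rn7sk had 2 probe sets and the smallest differences of the set. Probe set 10426437 gave 12.20 and 12.13 on the RBP arrays, against 12.98 and 13.04 on the IgG arrays. Probe set 10595140 gave 11.74 and 11.75 on the RBP arrays, against 12.90 and 13.04 on the IgG arrays. Groups did not overlap on either one, and replicate arrays differed by at most 0.14. These levels lay near the highest value on any array, 13.87, and whether differences are compressed there was not tested. The 7SK RNA was 1.79-fold lower by the first probe set (-0.84 ± 0.14, SE) and 2.33-fold lower by the second (-1.22 ± 0.15, SE), while differences of the other 8 probe sets ran from -2.73 to -1.78. When each array was centred on its chemosensory receptor genes, which moved the median of all probe sets from -0.03 to 0.29, the 7SK probe sets stayed lower, at -0.53 and -0.90. With quantile normalization, which moved that median to 0.15, they were at -0.67 and -1.05.

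The vault RNA gene Vaultrc5 had levels of 4.50 and 4.27 on the RBP arrays, against 7.66 and 6.57 on the IgG arrays. Both RBP arrays were under the background level, so the measured 6.64-fold difference (-2.73 ± 0.36, SE) is better read as a bound. The IgG mean set against the background level gave 3.39-fold. That bound holds for the IgG mean only, since IgG replicate 2 alone, at 6.57, would give a smaller one. The IgG arrays were far apart, and the difference was -2.19 without IgG replicate 1 and -3.28 without IgG replicate 2.

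The Y RNA genes Rny1 and Rny3 are near neighbours, with 1 entry between them in the RefSeq gene table of GRCm38.p6. Rny3 gave 10.37 and 9.41 on the RBP arrays, against 12.39 and 11.41 on the IgG arrays. Replicate 1 was higher by nearly the same amount in both groups, and the difference was -2.02 between arrays numbered 1 and -2.0 between arrays numbered 2. Over all arrays Rny3 was 4.02-fold lower (-2.01 ± 0.43, SE), with -1.52 without IgG replicate 1 and -2.5 without IgG replicate 2, -2.49 without RBP replicate 1 and -1.53 without RBP replicate 2. Rny1 gave 3.52 and 3.29 on the RBP arrays, against 7.06 and 4.69 on the IgG arrays. Of the 4 arrays, IgG replicate 1 alone lay above the background level, so no fold is given for Rny1. The measured difference of -2.47 ± 0.72 (SE) turned on that array, since it was -1.28 without IgG replicate 1 and -3.65 without IgG replicate 2. Rny1 was the 1 probe set of the 10 outside the count past the threshold.

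Differences of the structural RNAs lay below the median of probe sets of like level in every case. Among the 540 probe sets within 0.5 of the mean level of Rny3, the median difference was 0.45, against -2.01 for Rny3. For Terc and Rmrp, the median at like level was 0.76, and for Rprl2 it was 0.77. Near the dim probe sets of Vaultrc5 and Rny1 it was -0.22 and -0.23. Only 24 and 49 probe sets had levels like those of the 7SK probe sets, with medians of 0.13 and -0.05. Vaultrc5 had the 15th lowest difference of all 21789 probe sets and Rpph1 the 29th, whereas the first 7SK probe set stood at 585. These ranks use the measured differences by which the RNAs were chosen and test nothing. With the background level in place of its RBP levels, the difference of Vaultrc5 was -1.76, so its rank is uncertain. After a loess trend of difference on level was removed, the median of the 10 probe sets was -2.44, with Rmrp at -2.89 and Rprl2 at -2.87.

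**Figure D2:**
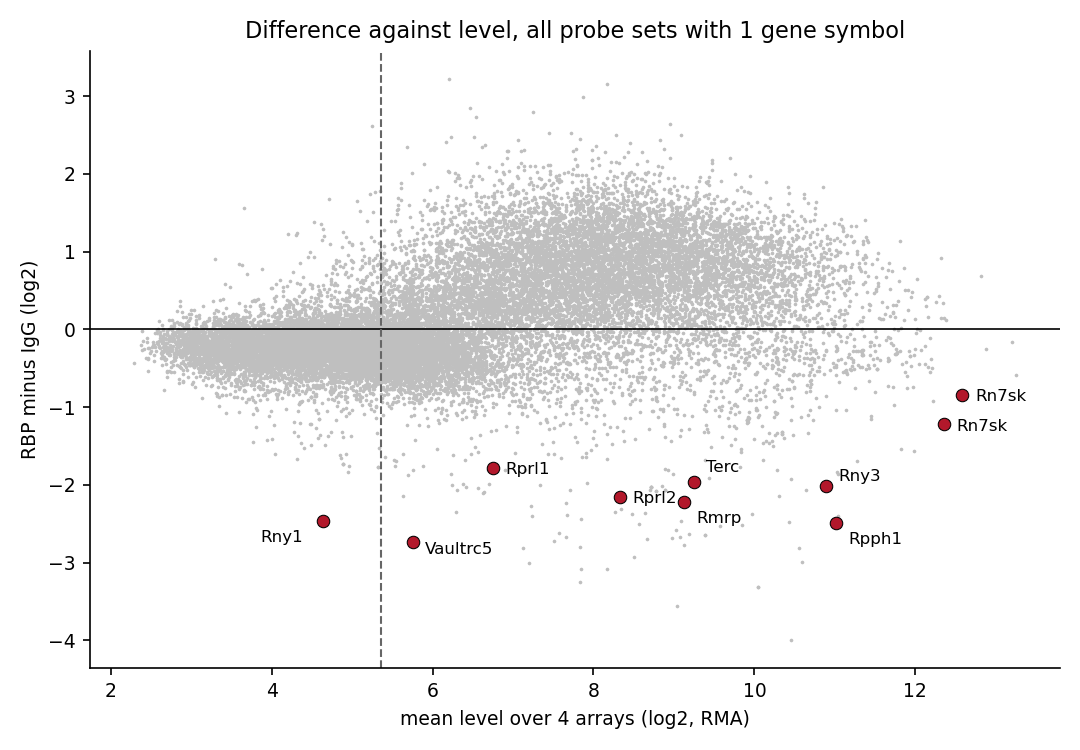
RBP minus IgG difference (log2) against mean level over the 4 arrays (log2, RMA) for all 21789 probe sets with 1 gene symbol (grey) and the 10 probe sets of the structural RNAs (red), with the background level as a dashed line. Most probe sets at levels of 7 to 10 lie above 0, and the red points lie between -2.73 and -0.84.

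Small nucleolar and Cajal body RNAs had median differences close to that of the structural RNAs, and microRNA genes a smaller one. The 33 probe sets of box C/D RNAs, which guide methylation of ribosomal RNA, had a median difference of -2.07, with 26 called lower and 0 higher. The 27 probe sets of H/ACA and Cajal body RNAs, guides of pseudouridylation, had a median of -2.01, with 17 called lower and 0 higher. Among 305 probe sets of microRNA genes, the median was -0.41, 77 were called lower and 0 higher, and 217 had a mean level at or under the background level. Whether the structural RNAs differ from these classes in their difference between antibodies was not tested.

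The gap between the 2 arrays of a group had a smaller median for the structural RNAs than for the small nucleolar RNAs, a contrast that was not tested. Such gaps enter the SE behind the calls, which were known when the RNAs were chosen. They are therefore not independent of that choice. The median absolute gap was 0.22 between the RBP arrays and 0.15 between the IgG arrays for the 10 probe sets. It was 0.70 and 0.91 for box C/D RNAs and 0.94 and 1.34 for H/ACA and Cajal body RNAs. Over all probe sets it was 0.13 between the RBP arrays and 0.24 between the IgG arrays. The classes differ in level, with median mean levels of 9.18 for the structural RNAs, 7.59 for box C/D and 8.17 for H/ACA and Cajal body RNAs, and the part of level in these gaps was not tested.

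**Figure D3:**
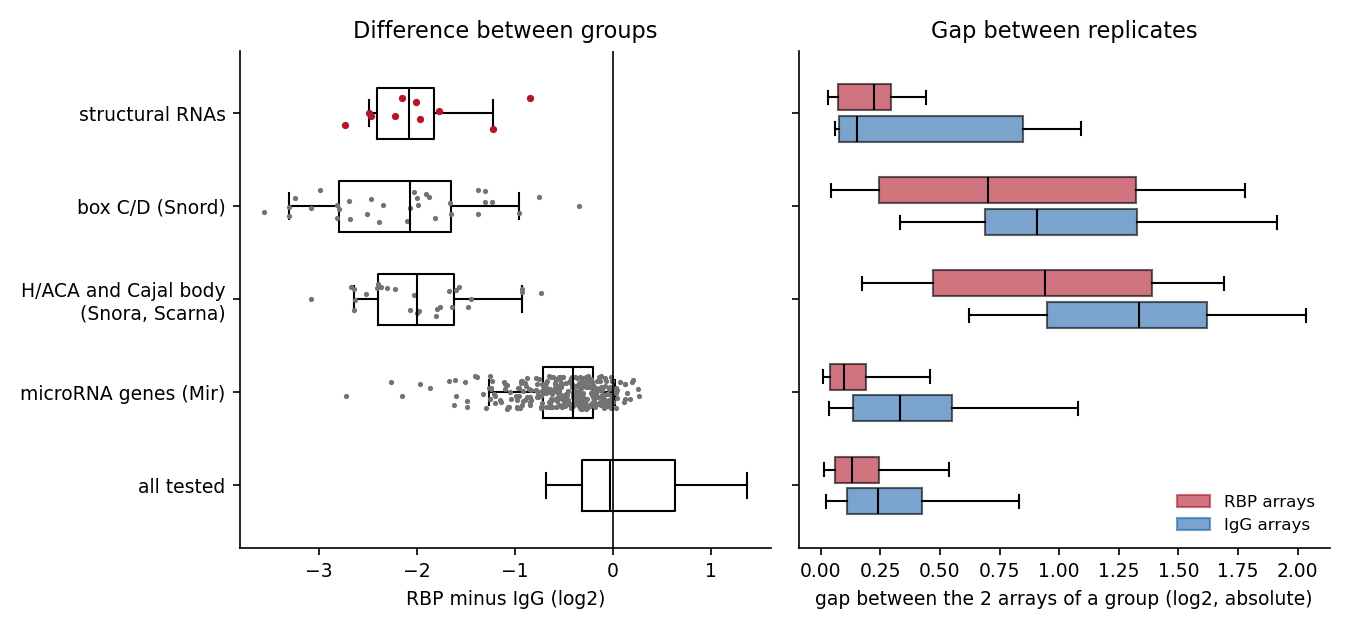
Left, RBP minus IgG difference (log2) by RNA class, and right, the absolute gap between the 2 arrays of each group (log2), RBP in red above IgG in blue; boxes span the quartiles with the median as a line, whiskers the 5th to 95th percentile, and points on the left are probe sets. Median differences are -2.08, -2.07 and -2.01 for the upper 3 classes, while their median gaps differ.

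Between the IgG arrays, the Y and vault RNAs had the largest gaps of the set. Between the RBP arrays the largest gap was that of Rny3, while Vaultrc5 and Rny1 lay under the background level there. Between the IgG arrays, Vaultrc5, Rny1 and Rny3 had gaps of 0.98 to 2.37, against 0.05 to 0.44 for the other 7 probe sets. A gap over 1 between the IgG arrays was seen for 2 of the 10 probe sets and for 2.68% of all probe sets. IgG replicate 1 was the higher array for these 3 RNAs, and RBP replicate 1 was also higher, by 0.22 for Vaultrc5, 0.22 for Rny1 and 0.96 for Rny3. The RBP gaps of Rprl1 (0.44), Terc (0.32) and Rmrp (0.22) were as large as or larger than those of Vaultrc5 and Rny1. For Vaultrc5 and Rny1 these are gaps between levels under the background level, which say little of the RNAs. The RBP gap of Rny3 was larger than that of 99.3% of all probe sets, and its IgG gap larger than that of 97.1%.

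Several markers of granulocytes, hepatocytes and lymphoid cells were also higher on replicate 1 in both groups, as were 31.2% of all probe sets. Of 6 granulocyte and mast cell markers, 4 were higher on replicate 1 in both groups, and 5 lay above the background level on every array. Their summed linear levels were 4006 and 2152 on RBP replicates 1 and 2 and 5337 and 2595 on IgG replicates 1 and 2. Of 6 hepatocyte markers 5 behaved likewise, with sums of 526 and 335 on the RBP arrays and 549 and 358 on the IgG arrays, and 3 of the 6 were above the background level on every array. Of 5 measured lymphoid markers 3 did so, with sums of 607 and 376 on the RBP arrays and 558 and 304 on the IgG arrays. Of 6 macrophage markers 3 did so, and of 6 endothelial and stromal markers 4. Megakaryocyte markers did not share the pattern, with 1 of 4 higher on replicate 1 and 1 on replicate 2 in both groups, and sums of 447 and 425 on the RBP arrays and 298 and 346 on the IgG arrays. No measured erythroid progenitor marker was higher on replicate 1 in both groups, and 5 of 7 were higher on replicate 2 in both. The share of all probe sets higher on replicate 2 in both groups was not counted. The part of these markers in the gaps of the Y and vault RNAs was not tested. Between antibodies, 1 of 6 macrophage markers (Cd68, -1.59) and 2 of 6 granulocyte and mast cell markers (Elane, -1.44, and Camp, -0.63) fell, and none of either list rose. Macrophage markers did not run one way, since Csf1r was at 1.12 and Adgre1 at 0.58, neither of which passed. In the other lists, 1 of 4 megakaryocyte markers (Gp9, 0.82), 1 of 6 endothelial and stromal markers (Pdgfrb, 1.09) and 3 of 7 erythroid progenitor markers rose, and no hepatocyte or lymphoid marker passed. Over all probe sets tested, 23.5% rose and 6.64% fell, and 35.8% of those above the background level rose. The share of erythroid progenitor markers that rose was 42.9%, and these shares were not compared by a test. Summed levels of the macrophage markers were 703 and 427 on the RBP arrays and 563 and 485 on the IgG arrays. The part of these cells in the differences of the structural RNAs was not tested.

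**Figure D4:**
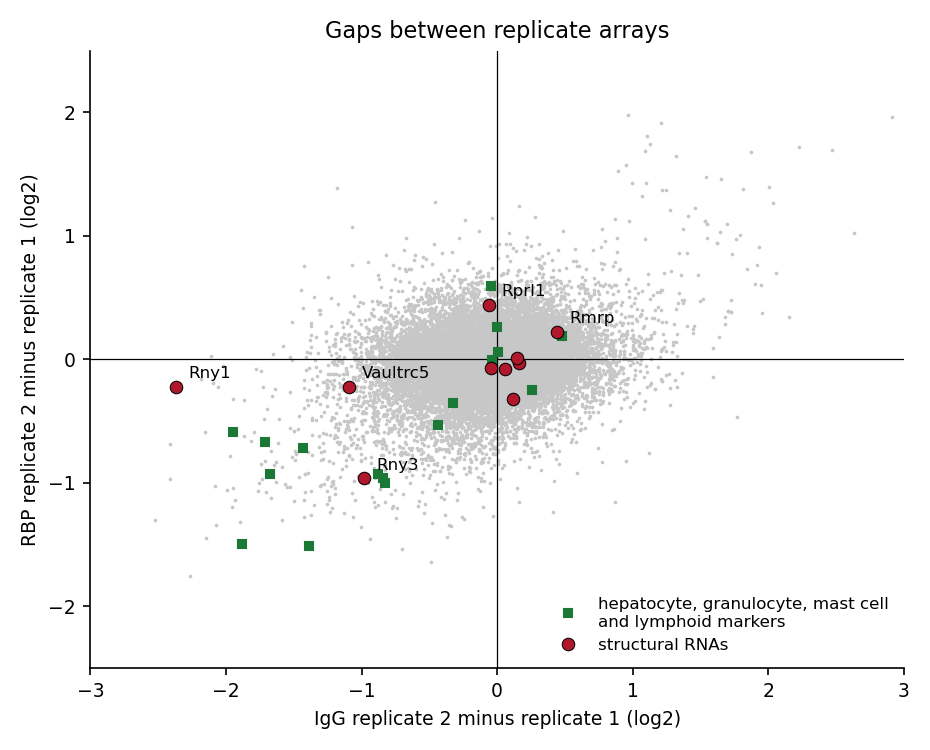
Replicate 2 minus replicate 1 (log2) for the RBP arrays (vertical) against the IgG arrays (horizontal), for all probe sets with 1 gene symbol (grey), the structural RNAs (red) and markers of hepatocytes, granulocytes, mast cells and lymphoid cells (green). Rny3 lies at -0.98 and -0.96, beside several green points, while Rny1 lies at -2.37 and -0.22.

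Outside small RNAs, receptors and predicted genes, the 5 profiles nearest to the mean profile of the structural RNAs over the 4 arrays were led by 3 genes for histone H2B. That mean profile was -0.93 and -1.06 on the RBP arrays and 1.17 and 0.81 on the IgG arrays. It is mainly the difference by which the RNAs were chosen, so likeness to it restates that difference and tests nothing. Distances between profiles, each with its own mean subtracted, were 0.19 for H2bc9, 0.28 for H2bc3 and 0.31 for H2bc14, in log2 units. The proton pump subunit gene Atp6v0e and Pramel27 followed, both at 0.53. H2bc9 gave 10.23 and 9.99 on the RBP arrays, against 12.07 and 11.87 on the IgG arrays. The structural RNAs themselves lay 0.28 (Rprl2) to 1.5 (Rny1) from their mean profile.

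The partner lists held proteins that bind, build or transcribe these RNAs, with some that only act in related steps. Among their mRNAs, the RBP mean lay above the IgG mean for 88 of 101 measured genes out of 109 listed. Of the 101 genes 45 rose, 1 fell and 55 did not pass, with a median difference of 0.60, against 0.39 over all probe sets above the background level. Mean levels of the partner genes were 8.68 and 8.72 on the RBP arrays and 8.08 and 8.10 on the IgG arrays. Among all probe sets of a level like that of Rprl2 (mean 8.32), the median difference was 0.77, so 0.60 was not above it. The share of all probe sets with the RBP mean above the IgG mean was not counted. The median of 0.39 puts most probe sets above the background level on that side too. The 88 of 101 is therefore not read as a trait of the partner genes. The share that rose, 44.6%, stands beside 35.8% of the 14079 probe sets whose mean level exceeded background, as did that of 99 of the 101 genes, and the difference between these shares was not tested. The count was 17 without RBP replicate 1, 18 without RBP replicate 2, 22 with quantile normalization, 68 with centring on chemosensory receptor genes and 13 with the level trend removed, where 4 fell.

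**Figure D5:**
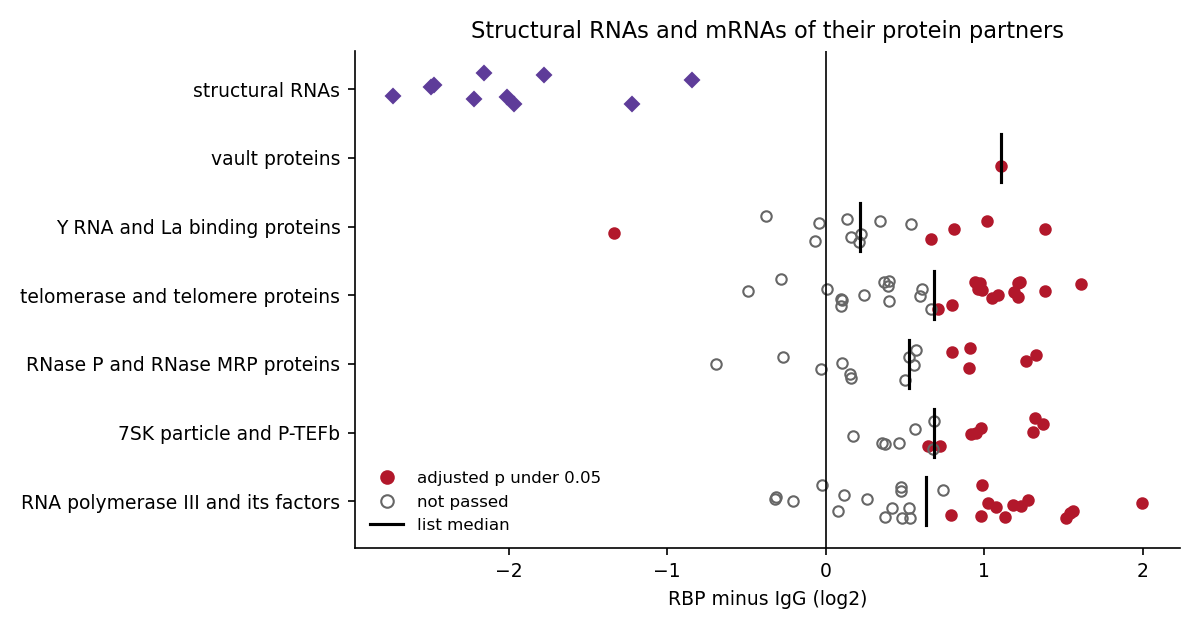
RBP minus IgG difference (log2) of the structural RNAs (diamonds, no test) and of the mRNAs of their protein partners by list, with filled circles for an adjusted p under 0.05 in limma, open circles for the rest and a bar for each list median. The diamonds lie between -2.73 and -0.84, and list medians lie between 0.21 and 1.11.

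The list for RNase P and RNase MRP also held Elac1, Elac2 and Prorp, transfer RNA processing enzymes that are not subunits of these particles. Of its 15 genes, 5 rose and 10 did not pass, with a median of 0.53. That share, 33.3%, is under the 35.8% of all probe sets above the background level. With quantile normalization 2 rose, and with the level trend removed all 5 calls were lost (median 0.11), where Rpp14 and Pop1 had limma adjusted p of 0.0566 and 0.0544. The shared subunit genes Rpp14 (1.33 ± 0.16, SE; limma, adjusted p = 0.00594) and Pop1 (1.27 ± 0.15) led, and the transfer RNA 3′-end nuclease gene Elac2 (0.91 ± 0.15) and the subunit gene Pop4 (0.90 ± 0.21) followed. In that list 3 genes rose without RBP replicate 1 and 2 without RBP replicate 2. Elac2 and Pop4 lost their calls with quantile normalization too (limma, adjusted p = 0.144 and 0.271). Elac2 lost its call without RBP replicate 1 or 2 (limma, adjusted p = 0.103 and 0.0663), and Pop4 without RBP replicate 2, IgG replicate 1 or IgG replicate 2 (0.172, 0.0541 and 0.0542).

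For telomerase and telomeres, 14 of 28 genes rose and 14 did not pass, with a median of 0.69. That share, 50%, stands beside 35.8% of all probe sets above the background level, and the difference between these shares was not tested. With quantile normalization 5 rose and 1 fell, and with the level trend removed 4 rose and 2 fell (median 0.13), where Parn (0.53; limma, adjusted p = 0.066) and Dkc1 (0.54, adjusted p = 0.16) lost their calls. Dkc1 also lost its call with quantile normalization (adjusted p = 0.112). Coil, the Cajal body scaffold coilin, rose by 1.61 ± 0.17 (SE; limma, adjusted p = 0.00571), the ATPase gene Nvl by 1.38 ± 0.14, the dyskerin partner Gar1 by 1.22 ± 0.16 and the deadenylase gene Parn, which trims the telomerase RNA, by 1.21 ± 0.14. Dkc1, which encodes dyskerin, rose by 0.97 ± 0.22 (limma, adjusted p = 0.0231), a call lost without RBP replicate 2 (0.70, adjusted p = 0.141) or IgG replicate 1 (0.95, adjusted p = 0.0527). Gar1 lost its call without RBP replicate 1 (adjusted p = 0.0522). Tert, the catalytic subunit, did not pass (limma, adjusted p = 0.132), at 5.95 ± 0.12 against 5.55 ± 0.20 (SD, n = 2 each). Its level on IgG replicate 1, 5.41, lay just above the background level. Tert passed with centring on chemosensory receptor genes (0.71, limma adjusted p = 0.0282), and without IgG replicate 2 its difference was 0.54. Without RBP replicate 1 or 2, 5 and 4 genes of the list rose.

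For the 7SK particle and P-TEFb, 8 of 15 measured genes rose and 7 did not pass, with a median of 0.69. That share, 53.3%, stands beside 35.8% of all probe sets above the background level, and the difference between these shares was not tested. With quantile normalization 3 rose, and with the level trend removed 1 rose (median 0.18), where Mepce, Hnrnpr and Aff4 lost their calls (limma, adjusted p = 0.0681, 0.0871 and 0.164). Larp7 and Aff4 also lost theirs with quantile normalization (0.671 and 0.106). Mepce, the 7SK capping enzyme, rose by 1.37 ± 0.18 (SE; limma, adjusted p = 0.00644), the 7SK-binding Hnrnpr by 1.32 ± 0.18, the P-TEFb inhibitor Hexim1 by 1.31 ± 0.15 and the elongation scaffold Aff4 by 0.98 ± 0.18. Larp7, which holds the 3′ end of 7SK, rose by 0.64 ± 0.16 (limma, adjusted p = 0.0317), and its second probe set gave 0.40 and did not pass. Only 2 genes of the list rose without RBP replicate 1 and 3 without RBP replicate 2. Larp7 and Aff4 lost their calls in both cases (limma, adjusted p from 0.0524 to 0.254), and Hnrnpr without RBP replicate 1 (0.0527).

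For vaults, the major vault protein gene Mvp was the 1 gene measured of 3 listed, and it rose by 1.11 ± 0.17 (SE; limma, adjusted p = 0.00825), a call lost without RBP replicate 1 (1.0, adjusted p = 0.0716). Of 14 Y RNA and La binding protein genes, 4 rose, 1 fell and 9 did not pass, with a median of 0.21. That share of rises, 28.6%, is under the 35.8% of all probe sets above the background level, and the median is under their 0.39. With quantile normalization 1 rose and 1 fell, and likewise with the level trend removed, and Igf2bp1 and Mov10 lost their calls in both (limma, adjusted p from 0.101 to 0.748). Ro60, the main Y RNA binding protein, rose by 1.39 ± 0.19 (SE; limma, adjusted p = 0.00698), the mRNA-binding protein gene Igf2bp1 by 1.02 ± 0.17 and the helicase gene Mov10 by 0.81 ± 0.22. Apobec3, a cytidine deaminase, fell by 1.34 ± 0.19 on the log2 scale (limma, adjusted p = 0.00703), although its second probe set gave -0.05. Ssb, which encodes La, did not pass (0.16 ± 0.17; limma, adjusted p = 0.469). Without RBP replicate 1 or 2, 0 and 1 genes of this list rose. Igf2bp1 and Mov10 lost their calls in both cases (limma, adjusted p from 0.0604 to 0.257), Ro60 without RBP replicate 1 (1.25, adjusted p = 0.0506), and Mov10 also without IgG replicate 2 (0.0846).

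For RNA polymerase III and its factors, 13 of 28 measured genes rose and 15 did not pass, with a median of 0.64. That share, 46.4%, stands beside 35.8% of all probe sets above the background level, and the difference between these shares was not tested. With quantile normalization 10 rose, and with the level trend removed 6 rose and 1 fell, with a median of 0.011. Gtf3c4 (2.0 ± 0.18, SE, limma adjusted p = 0.0057), Gtf3c6 (1.56 ± 0.17) and Gtf3c1 (1.54 ± 0.20) encode subunits of TFIIIC, which binds promoters inside genes. Polr3g (1.51 ± 0.17) encodes a polymerase subunit. The list covers the polymerase at large, and which of its factors serve the structural RNA genes was not examined. The count was 7 without RBP replicate 1 and likewise 7 without RBP replicate 2.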

How the data were processed

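Each of the 4 arrays gave 1 log2 level per probe set. The deposited log2 values were made by the authors with RMA and affy, per the submitters' processing notes; no version, background step or filter is stated in the labels, and values of 1.83 to 13.87 pointed to a log2 scale. The platform annotation gave 1 gene symbol to 21789 of 35556 probe sets, several to 1621 and none to 12146; 21698 Entrez identifiers matched the RefSeq gene table of GRCm38.p6, which changed 0 symbols. All columns were used.

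RBP minus IgG was tested in R 4.3.3 with limma 3.58.1 (lmFit, eBayes; 2 residual and 3.7 prior degrees of freedom), two-sided, with Benjamini-Hochberg adjustment over the 21789 probe sets and a threshold of 0.05. An exact permutation test of 2 arrays against 2 cannot give a p below 0.333. Errors are SE of the difference or SD of 2 arrays, whose number limits precision. A difference under the background level was bounded by the IgG mean minus that level.

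The genes and lists were chosen with earlier results of these data known. From each partner list the text names up to 4 called genes with the largest absolute difference, and always Ssb, Ro60, Tert, Dkc1, Larp7, Mvp and Zfp36l2. Genes with several probe sets were represented by that with the highest mean. The 5 nearest profiles were taken by Euclidean distance. Cd68, Csf1r, Adgre1, Elane, Camp, Gp9, Pdgfrb and Mpo were named after their values were seen. Alternatives were quantile normalization, centring on chemosensory receptor genes, a filter and a floor at the background level, removal of a loess trend on level (span 0.3, degree 2, with degree 1 added after seeing the data), a block on replicate number, omission of single arrays, trended and robust eBayes, 1 probe set per gene and all probe sets.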

Additional observations from a re-analysis of the deposited data

How the results depend on the processing

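Each structural RNA probe set was lower in every alternative that fitted it, 14 for 8 of them and 13 for Rny1 and the second Rn7sk probe set. Their median was -2.30 with quantile normalization, -1.76 with centring on chemosensory receptor genes, -1.87 with the floor at the background level and -2.44 with the level trend removed. Of them 4 lay past the threshold with the floor, which left 6406 probe sets with no spread and 0.366 prior degrees of freedom. Rny1 was removed by the filter. Over all probe sets, quantile normalization gave 2475 higher and 725 lower, centring 7647 and 388, the floor 841 and 258 and removal of the level trend 1434 and 1287, against 5115 and 1446 reported. Leaving out 1 array gave 1613 to 5522 higher and 94 to 3220 lower. Of the partner genes, 22 were higher and 2 lower with quantile normalization, 68 higher with centring, 5 higher and 0 lower with the floor, and 13 higher and 4 lower with the level trend removed. Leaving out 1 array gave 17 to 55 higher and 1 to 5 lower. Their median was 0.30 with quantile normalization, 0.91 with centring and 0.11 with the level trend removed, where Larp7 turned to -0.037 (limma, adjusted p = 0.906). A loess degree of 1 was an added setting for that trend, and the use of 2 was settled after values were seen. Degree 1 gave 1537 probe sets higher and 1272 lower, and 13 partner genes higher and 3 lower with a median of 0.12. It gave a median of -2.44 for the structural RNAs and -0.00084 for Larp7 (limma, adjusted p = 0.998). The cause of these shifts was not tested. The replicate numbers are shared by the titles alone. With the replicate block, 2452 probe sets and 3 partner genes were lower and all 10 structural RNA probe sets lay past the threshold, a count that tests nothing. The gaps between replicates correlated across probe sets between the groups (Pearson's r = 0.26, probe sets not being independent), which with 2 numbers does not settle a pairing.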
